A study of Mus musculus with 10 samples.

Results

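Microglia sorted from mouse brain slices after 3 weeks in culture held a minority of cells with abundant Gpnmb transcripts, and the 369 cells described here are that minority. They were chosen by their own Gpnmb count. A cell of either slice 3 weeks library was taken when it held at least 3 unique molecular identifiers (UMIs, each standing for 1 captured transcript) of Gpnmb, at least 400 detected genes, at most 30000 UMIs in all and at most 5% of its UMIs from mitochondrially encoded genes. By this rule 104 of 1153 cells of replicate 1 and 265 of 3740 cells of replicate 2 were Gpnmb-positive, out of 4893 such cells in the 2 libraries and 19059 in the series. They were compared with the 3967 cells of the same 2 libraries that held no Gpnmb UMI (862 and 3105 cells), called Gpnmb-zero, after pairing each Gpnmb-positive cell with a Gpnmb-zero cell of the same library and of nearly the same total UMI count.

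The slices were cut from the brains of newborn C57BL/6 pups, slices could be pooled before sorting, and live cells with high CD11b and intermediate CD45 at the surface were sorted and profiled with 10x Genomics 3' chemistry. The labels name no transgene, deletion or drug for any group. The other groups of the series were the same kind of slice after 1 day and after 1 week, mixed glial cultures grown in vitro, and microglia taken directly from adult brain, all of the same strain and sort with 2 libraries each. Replicate 1 of slice 3 weeks carried one study identifier and replicate 2 another, so every contrast was taken inside a library. The labels give an input of about 1000 cells per sample, against 1221 and 3829 barcodes in the slice 3 weeks files, and do not name the animals or cultures behind a library.

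Gpnmb (chr6:49036518-49058182 in GRCm38, protein coding) encodes a glycoprotein that spans the membrane of lysosomes and of the cell surface in macrophages, osteoclasts and pigment cells. Its outer part can be shed by the metalloproteases ADAM10 and ADAM17 and can bind integrins, syndecan-4 and CD44, and its transcription is known to respond to the MITF and TFE family of factors. In brain it is best known from phagocytes that have taken up lipid or debris, among them microglia around amyloid plaques and at sites of demyelination.

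The count that chose the cells varied widely among them. Gpnmb ranged from 3 to 182 UMIs with a median of 8.0 in replicate 1 and from 3 to 110 UMIs with a median of 7.0 in replicate 2. More than 10 UMIs were held by 47 of the 104 cells of replicate 1 and by 77 of the 265 cells of replicate 2. Gpnmb-positive cells held 87.7% of the Gpnmb UMIs of replicate 1 and 85.2% of those of replicate 2, although they were 9.02% (95% exact binomial interval 7.43 to 10.8%) and 7.09% (6.28 to 7.96%) of the cells. The limit of 3 UMIs cut through a continuous range: 14 and 54 cells held exactly 3, and 37 and 109 cells just outside held exactly 2. No other cell type was sorted from these libraries, so the number of Gpnmb UMIs that free RNA adds to a cell could not be read from them.

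The share of such cells was lower in adult and slice 1 day libraries than at 3 weeks and higher in vitro, and at full depth the intervals at 1 week overlapped those at 3 weeks. No Gpnmb UMI was found in the 3799 and 3527 adult cells, which allows a share of up to 0.0790% and 0.0851% when 3 counts are taken as the limit. The exact 95% binomial upper bounds were 0.0971% and 0.105%. The share was 1.35% and 2.27% after 1 day, 4.73% and 6.56% after 1 week on only 148 and 61 cells, and 49.9% and 68.3% in vitro. Depth bears on these shares, as the median cell held 6112 and 5266 UMIs at 3 weeks, 3257 and 1858 in adult and 12858 and 13966 in vitro. With every cell reduced at random to 2000 UMIs, 5.52% and 2.70% of the slice 3 weeks cells and 11.7% and 17.7% of the in vitro cells kept 3 or more. After 1 day 0.208% and 0.394% did, and after 1 week 0.725% and 0%. The thinned interval of slice 1 week replicate 1 (0.0183 to 3.97%) lay below that of slice 3 weeks replicate 1 (4.25 to 7.02%) and overlapped that of replicate 2 (2.20 to 3.29%). These intervals and limits cover counting error only.

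**Figure D1:**
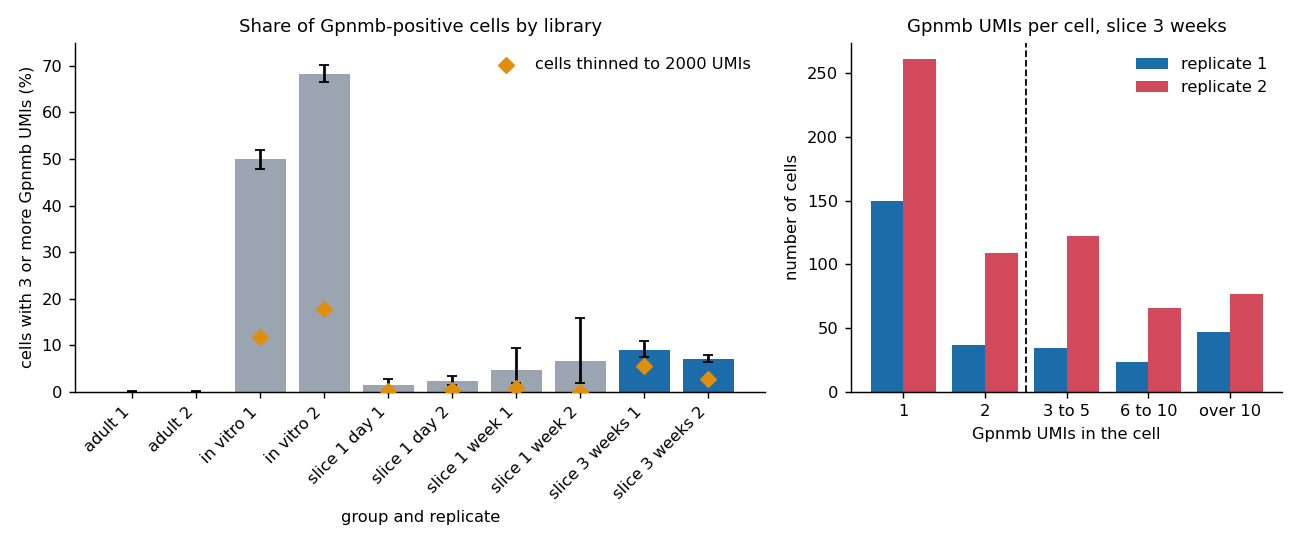
Left, bars give the percentage of cells with 3 or more Gpnmb UMIs in each of the 10 libraries with exact 95% binomial intervals, and diamonds the same after thinning every cell to 2000 UMIs (not computed for adult). Right, the number of slice 3 weeks cells by their Gpnmb UMIs, with the dashed line at the limit. The slice 3 weeks bars stand at 9.02% and 7.09%, between those of slice 1 week with their wide intervals and the in vitro bars.

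Gpnmb-positive cells carried the transcripts of microglia and macrophages. All 10 defining genes (among them Csf1r, C1qa, Tyrobp, Aif1 and Cd68) were detected in both libraries, and their summed level was 40077 and 31240 CPM (UMIs of the gene scaled to a common total of UMIs) against 45790 and 37227 CPM in the paired Gpnmb-zero cells. Markers of other cells were at low levels, and many were at 0. Ccr2, Ly6c2, Plac8 and Ear2 of monocytes, S100a9 and Ltf of neutrophils, Cd3d and Ms4a1 of lymphocytes, and Pdgfra, Mog and Col1a1 of glia and fibroblasts were at 0 UMIs in all paired Gpnmb-positive cells. The summed levels of the neuron, astrocyte, endothelial and fibroblast lists stayed at or below 13.4 CPM. The 9 monocyte markers summed to 211 and 271 CPM against 226 and 209 CPM and the 10 neutrophil markers to 63.2 and 52.1 CPM against 91.1 and 55.8 CPM, with 6 and 5 of them at 0. S100a8 of neutrophils was found with 7 and 5 UMIs against 1 and 3. The precursor list summed to 26.7 and 49.8 CPM against 18.2 and 50.7 CPM, most of it Cspg4, and the lymphocyte list to 9.72 and 21.2 CPM against 36.5 and 30.9 CPM, all of it Cd79b. The 8 oligodendrocyte markers summed to 101 and 57.6 CPM in Gpnmb-positive cells and 92.4 and 48.9 CPM in Gpnmb-zero cells. Mbp, the myelin basic protein gene, was the only called gene of this list, at 61.0 and 34.1 CPM against 18.3 and 19.1 CPM (log2 fold change 1.14 ± 0.24 SE, adjusted p = 0.0014; 0.86 and 1.74 without replicate 1 and 2), and 6.80% and 3.85% of Gpnmb-positive cells held an Mbp UMI after thinning, against 4.51% and 3.46% of Gpnmb-zero cells. Its call was lost when cells poor in Malat1 were left out (log2 0.75) and with thinned cells (0.14).

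Of the border macrophage markers, Ms4a7, Pf4 and Mrc1 were called higher in Gpnmb-positive cells. The 2 other detected markers were not called, Stab1 at log2 -0.16 ± 0.17 and Folr2 at -0.43 ± 0.27. Cd163, Lyve1, Cbr2 and Clec10a were at 0 UMIs in all paired Gpnmb-positive cells, and at or near 0 in Gpnmb-zero cells too. Cbr2 had 3 and 0 UMIs and Clec10a 0 and 1 in the partners, and after thinning 1 Gpnmb-zero cell held Cd163 and none held Lyve1. The 9 listed markers summed to 659 and 451 CPM against 219 and 137 CPM, with 5 of the 9 detected in the Gpnmb-positive cells of each library. Ms4a7, a membrane protein of the CD20-like family, stood at 375 and 310.5 CPM against 35.5 and 34.4 CPM (log2 3.25 ± 0.14, adjusted p = 2.4e-16). Pf4, the chemokine platelet factor 4, stood at 218 and 67.6 CPM against 29.8 and 3.25 CPM (log2 3.36 ± 0.23, or 4.38 without replicate 1, 2.61 with thinned cells and 2.30 with partners also matched on having fewer than 5 Malat1 UMIs). After thinning, an Ms4a7 UMI was found in 34.0% and 23.8% of Gpnmb-positive cells and in 5.23% and 3.70% of Gpnmb-zero cells. Of the 363 thinned Gpnmb-positive cells, 24.0% held a UMI of Pf4, Mrc1 or Ms4a7 and none of P2ry12 or Tmem119, 8.54% held both kinds, 22.6% held only P2ry12 or Tmem119, and 44.9% held neither. Among 3845 Gpnmb-zero cells the same shares were 2.73%, 3.64%, 68.9% and 24.8%. By library, 29.1% and 21.9% of thinned Gpnmb-positive cells held only Pf4, Mrc1 or Ms4a7, and 35.0% and 48.8% held neither kind. Mrc1 stood at only 20.3 and 32.6 CPM against 10.3 and 8.37 CPM and lost its call without replicate 2 (log2 0.98, adjusted p = 0.39) and with thinned cells (0.87, adjusted p = 0.28). After thinning, 0.971% and 1.92% of Gpnmb-positive cells held an Mrc1 UMI against 1.66% and 2.13% of Gpnmb-zero cells. At full depth, a UMI of Pf4, Mrc1 or Ms4a7 was held by 69.9% and 41.1% of paired Gpnmb-positive cells and by 26.2% and 12.8% of their partners. The part of such cells in other results was measured only by leaving them out, which left 31 and 155 pairs in place of 103 and 265.

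The 2 classes differed in cell quality as well. Cells with fewer than 5 UMIs of Malat1, a nuclear RNA, were 42.7% of paired Gpnmb-positive cells against 20.4% of their Gpnmb-zero partners in replicate 1, and 27.9% against 18.9% in replicate 2. The median mitochondrial share was 1.21% and 1.14% in paired Gpnmb-positive cells against 1.53% and 1.40%. At the same UMI count, Gpnmb-positive cells of replicate 1 held a median of 2014 genes against 2293, and those of replicate 2 held 2220 against 2289. Malat1 itself was not called (log2 0.29 ± 0.08, adjusted p = 0.016, below the 1.5-fold limit). With partners matched on Malat1 status as well as on UMIs, 300 genes were higher and 220 lower, and 462 of the 592 genes called in the comparison below kept their call. The 2 libraries shared 4 cell barcodes, none of them between Gpnmb-positive cells.

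Across 10246 tested genes, 333 (3.25%) were higher and 259 (2.53%) were lower in Gpnmb-positive cells (edgeR quasi-likelihood test on UMIs summed per library and class, Benjamini-Hochberg adjusted p below 0.05 and more than 1.5-fold). Gpnmb was left out, since it chose the cells. These 2 libraries were fitted with 3 others that held at least 20 pairs. The p-values measure how the difference between the classes varied between the libraries of a group, an estimate shared in part over all genes. The slice 1 day library among them was alone in its group and added nothing to that spread. Scaling by library size alone in place of edgeR's TMM factors gave 214 higher and 340 lower and shifted the median gene from -0.0028 to -0.14 on the log2 scale. Leaving out all cells with a UMI of Pf4, Mrc1 or Ms4a7 left 64 higher and 42 lower of 6286 genes, and leaving out Malat1-poor cells left 221 and 168. Of the 592 called genes, 458 could be tested without the Pf4, Mrc1 or Ms4a7 cells, in a fit of 2 libraries in place of 5, where 457 had the same sign and 106 the same call. Without the Malat1-poor cells 359 had the same call.

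**Figure D2:**
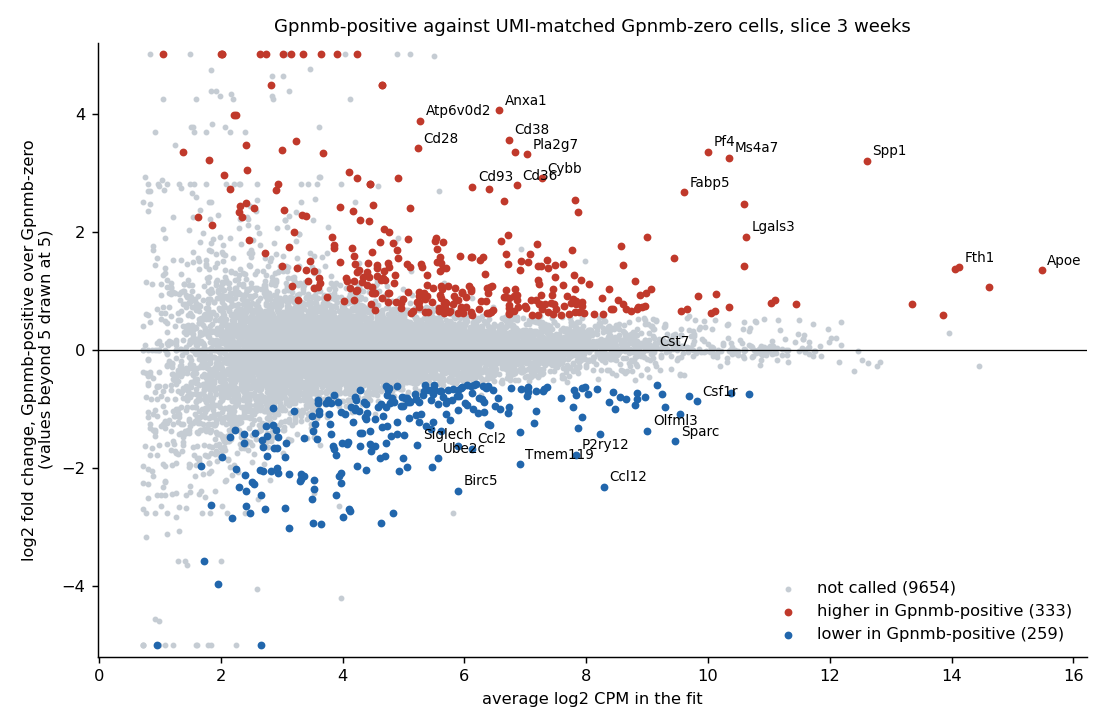
Each point is a gene, by its average log2 CPM in the fit and its log2 fold change between paired Gpnmb-positive and Gpnmb-zero cells of the slice 3 weeks libraries. The 333 genes called higher and 259 called lower are coloured, and Spp1 and Apoe stand at the right edge among the most abundant genes called higher.

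Among genes with an average of 5 or more on the log2 CPM scale over all libraries of the fit, in vitro included, and more than a few UMIs in both classes, the largest rise was that of Atp6v0d2, a subunit of the vacuolar proton pump that is also used by osteoclasts, at 203 and 123 CPM against 2.29 and 13.01 CPM (log2 3.88 ± 0.26, adjusted p = 2.2e-12; 3.26 without replicate 1 and 6.44 without replicate 2). Cd38, which degrades NAD, was next at 51.5 and 73.1 CPM against 4.58 and 6.04 CPM (log2 3.56 ± 0.32, or 2.85 with thinned cells). Thinned cells with 3 to 5, 6 to 10 and over 10 Gpnmb UMIs held 136, 65.2 and 0 CPM of Cd38 in replicate 1 and 62.5, 127 and 110 CPM in replicate 2. Pla2g7, a secreted phospholipase that clears oxidised phospholipids, stood at 168 and 307 CPM against 5.73 and 35.8 CPM (log2 3.31 ± 0.16, or 4.87 without replicate 2). Both libraries agreed in direction for each, and the Gpnmb-positive values did not overlap the Gpnmb-zero values. Clec4d, a C-type lectin receptor (log2 3.35 ± 0.43), Cybb, the catalytic subunit of the phagocyte NADPH oxidase (log2 2.90 ± 0.18), the scavenger receptor gene Cd36 (log2 2.78 ± 0.37, or 4.02 without replicate 2 and 3.83 with thinned cells) and Cd93 (log2 2.76 ± 0.62) also rose more than 6-fold. Cd36, Cd93 and Clec4d were more abundant in vitro than in the slices, with Cd93 at only 5.42 and 10.9 CPM against 1.15 and 1.39 CPM in the slices and at 90.02 CPM or more in vitro. Without cells holding a UMI of Pf4, Mrc1 or Ms4a7, Pla2g7 was at 2.25 and Cybb at 2.06, both still called. Anxa1, annexin A1, was also far more abundant in vitro, at 101 CPM or more, than in the slices, at 10.8 and 12.3 CPM against 0 and 0.930 CPM. Its fitted change was 4.05 (7.57 without replicate 2) but rested on 33 UMIs against 2, a ratio of 16.5 with a counting interval of 4.22 to 142, and Cd28 rested on 20 UMIs against 2 (ratio 10.0, interval 2.43 to 88.3). Without replicate 1 the call of Cd28 was lost (log2 2.31), and without replicate 2 that of Cd93 (log2 2.19). DESeq2 called neither (adjusted p = 0.092 and 0.053). With 1 slice library left out, the remaining one is assumed to vary like the in vitro libraries of the fit, which then alone give the spread.

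Of 12 tested genes listed as partners and regulators of Gpnmb, 1 was called, against 3.25% higher and 2.53% lower over all genes, a share that says nothing particular of these genes. It was the receptor gene Cd44 (27.1 and 34.5 CPM against 4.58 and 14.4 CPM, log2 1.48 ± 0.30, adjusted p = 0.0011; 2.56 without replicate 2). Its call was lost with thinned cells (1.03, adjusted p = 0.13) and without cells holding a UMI of Pf4, Mrc1 or Ms4a7 (1.59, adjusted p = 0.14). The factors Mitf (log2 0.35 ± 0.24), Tfeb (0.01 ± 0.28), Tfe3 (-0.02 ± 0.19) and Tfec (0.35 ± 0.80) did not pass the test, nor did the sheddases Adam10 (-0.40 ± 0.13) and Adam17 (0.13 ± 0.17) or the syndecan gene Sdc4 (0.00 ± 0.21). Mitf was detected at 28.5 and 31.1 CPM against 16.04 and 27.0 CPM, and Tfec at no more than 5.73 CPM in slices, so their intervals are wide. The median of the list was 0.05, against -0.0028 over all genes.

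The disease-associated microglia genes, a programme described in microglia near plaques and damaged myelin, divided into members that rose and members that were not called. Of 29 tested, 14 were higher and none was lower, with a median log2 fold change of 0.50. Spp1, the secreted phosphoprotein osteopontin, was at 20544 and 6047 CPM against 2911 and 498 CPM (log2 3.20 ± 0.12, adjusted p = 2.8e-18). The libraries differed in level by more than 3-fold in both classes, yet every Gpnmb-positive value lay above every Gpnmb-zero value. After thinning, 85.4% and 55.0% of Gpnmb-positive cells held an Spp1 UMI against 55.5% and 20.01% of Gpnmb-zero cells. Fabp5, a fatty acid carrier, stood at 1658 and 954 CPM against 173 and 201 CPM (log2 2.67 ± 0.14, or 3.27 without replicate 2). Igf1, the insulin-like growth factor, stood at 706 and 558 CPM against 138 and 180 CPM (log2 1.91 ± 0.13). Apoe, the lipid carrier apolipoprotein E, rose from an already high level, at 60812 and 39408 CPM against 22540 and 16445 CPM (log2 1.35 ± 0.07).

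Lgals3, the glycan-binding galectin-3, was at 2668 and 2188 CPM against 236 and 1243 CPM (log2 1.91 ± 0.28), and its change depended on the library. DESeq2 did not call it (adjusted p = 0.15), and it was 0.84 without replicate 1 and 3.51 without replicate 2. Itgax, the integrin CD11c (log2 2.28 ± 0.26, not called by DESeq2 at adjusted p = 0.065), Lyz2, lysozyme (1.37 ± 0.08), and Lpl, lipoprotein lipase (0.65 ± 0.09), were also higher. Lpl fell under the 1.5-fold limit with library size scaling (0.50) and without cycling cells (0.56). The lysosomal members Cd68 (0.80 ± 0.09), Ctsb (0.78 ± 0.09), Cd63 (0.77 ± 0.10) and Ctsd (0.59 ± 0.09) changed by less than 2-fold, and without replicate 1 Ctsb, Cd63 and Ctsd fell under the 1.5-fold limit at 0.52, 0.55 and 0.35. Cst7, the protease inhibitor cystatin F, stood at 817 and 1762 CPM against 870 and 1747 CPM (log2 -0.03 ± 0.09), and Cd9 (-0.09 ± 0.09), Axl (0.10 ± 0.15) and Csf1 (0.45 ± 0.17) were not called. Trem2, a lipid-sensing receptor (0.50 ± 0.09, adjusted p = 3.2e-04), and its signalling partner Tyrobp (0.47 ± 0.09, adjusted p = 6.3e-04) stayed under the 1.5-fold limit. Without cells holding a UMI of Pf4, Mrc1 or Ms4a7, 9 of 28 tested members were still higher, with Spp1 at 3.01, Fabp5 at 2.69 and Igf1 at 1.95, whereas Apoe (0.52), Lyz2 (0.65, adjusted p = 0.078) and Cd63 (0.54, adjusted p = 0.13) were no longer called. Without Malat1-poor cells 13 were higher.

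Spp1, Lgals3 and Fabp5 were each called higher above, so a larger share of Gpnmb-positive cells with all 3 was built into the choice of genes. After thinning, 45.6% and 28.5% of Gpnmb-positive cells held a UMI of all 3 genes, against 6.06% and 2.93% of Gpnmb-zero cells. Taken singly, Lgals3 was found in 72.8% and 78.5% against 26.8% and 45.7%, and Fabp5 in 68.9% and 60.0% against 20.7% and 19.1%. Whether the 3 were found together more often than their single shares give was not tested. Only 2 of 103 and 6 of 260 Gpnmb-positive cells held none of the 3. A P2ry12 UMI was found in 21.3% and 8.11% of the Gpnmb-positive cells with all 3 genes and in 35.3% and 28.4% of the Gpnmb-zero cells with all 3.

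**Figure D3:**
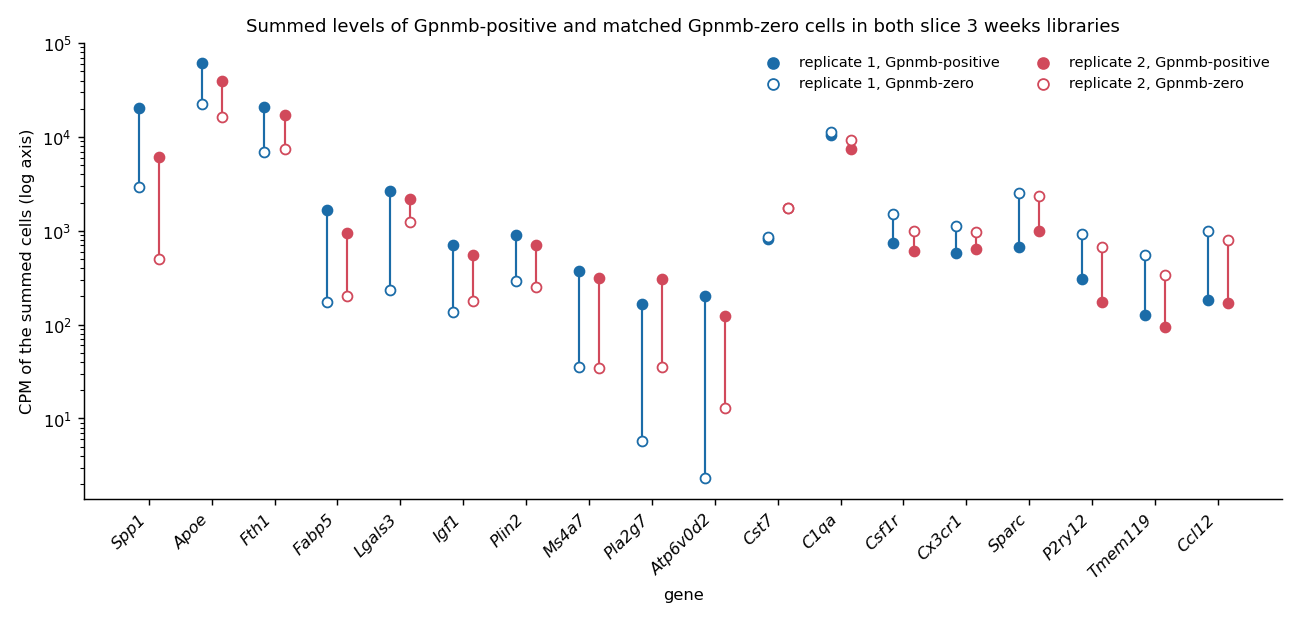
CPM on a log axis of 18 genes in the summed Gpnmb-positive cells (filled) and their paired Gpnmb-zero cells (open) of each slice 3 weeks library, joined by a line. Spp1 to Atp6v0d2 lie higher in Gpnmb-positive cells in both libraries, Csf1r to Ccl12 lie lower in both, and the points of Cst7 nearly coincide.

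Of 28 tested genes of lipid uptake and storage 12 were higher, none was lower and 16 were not called. Without cells holding a UMI of Pf4, Mrc1 or Ms4a7, 5 of 22 were higher with a median of 0.46. With all cells the median was 0.53, or 0.47 with genes at 0 in 1 class set to their bound. Plin2, the coat protein of lipid droplets, stood at 910 and 707 CPM against 295 and 253 CPM (log2 1.55 ± 0.10, adjusted p = 2.0e-12). Fabp4, a fatty acid carrier of macrophages and fat cells, was found with 66 and 19 UMIs in Gpnmb-positive cells and with none in their partners. Over all cells of each class it stood at 77.8 and 8.76 CPM against 2.88 and 0.170 CPM. Msr1, a scavenger receptor (log2 1.57 ± 0.20), Apoc1, an apolipoprotein (1.11 ± 0.10), Lipa, the lysosomal acid lipase (1.17 ± 0.13), and Soat1, which esterifies cholesterol for storage (0.87 ± 0.14), were higher. The exporter Abcg1 was called at 0.62 ± 0.15, and its partner Abca1 was not (0.47 ± 0.12, adjusted p = 0.010, below the fold limit). None of 19 tested cholesterol synthesis genes was called (median -0.26, with 2 at an unadjusted p under 0.05, and DESeq2 called none either).

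Of 44 tested lysosomal hydrolases and membrane proteins 5 were higher and 1 was lower, against 2 and 0 with DESeq2, and 3.25% and 2.53% over all genes with edgeR. The median was 0.14, or 0.21 without replicate 2. Without cells holding a UMI of Pf4, Mrc1 or Ms4a7 none of 40 was called by edgeR. Gla, alpha-galactosidase, was at 127 and 119 CPM against 55.0 and 60.4 CPM (log2 1.05 ± 0.14). Sqstm1, the autophagy receptor p62, was at 260 and 177 CPM against 159 and 101 CPM (0.77 ± 0.11). Without those cells Gla was at 0.92 (adjusted p = 0.056) and Sqstm1 at 0.93 (adjusted p = 0.091). Of 17 subunits of the vacuolar proton pump 15 had a positive fold change, with a median of 0.33, but only Atp6v0d2 and Atp6v1a (0.78 ± 0.13, or 1.18 without replicate 2) were called higher, against 6 without replicate 2. Atp6v1a was not called without Malat1-poor cells (0.55) or without cells holding a UMI of Pf4, Mrc1 or Ms4a7 (0.81, adjusted p = 0.089). Atp6v0a2 was lower (-0.97 ± 0.23), and not called without replicate 2 (-1.19, adjusted p = 0.12). Of 12 tested osteoclast-associated genes 5 were higher, against 1 with DESeq2 and 2 of 7 without cells holding a UMI of Pf4, Mrc1 or Ms4a7. Their median was 1.03, or 0.75 without replicate 2. The elastase gene Mmp12 was the most abundant of them, at 608 and 888 CPM against 6.87 and 285 CPM (log2 2.33 ± 0.27). Its change was 1.66 without replicate 1 and 6.46 without replicate 2, and DESeq2 did not call it (adjusted p = 0.061).

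Factors of the MITF and TFE family bind the letters CACGTG (E-box) and TCATGTG (M-box), and AP-1 binds TGACTCA. Of the 333 genes called higher, 251 had a RefSeq promoter in GRCm38.p6, and CACGTG was found on either strand in the 250 bases before the start of 5.18% of them, against 9.06% of the 7888 tested genes with a promoter and 6.05% of 27025 promoters. TCATGTG was found in 3.98% against 1.75% and 3.22%, and TGACTCA in 6.77% against 2.84% and 4.43%. The window of Gpnmb itself held none of the 3. The E-box and M-box matches among the named higher genes of the lysosome, proton pump and ferritin are printed here, to show what such a match looks like, with both AP-1 matches of the lysosomal gene Cd68, each 5′ to 3′ on the strand of the gene, with the matched letters or their reverse complement in capitals. In Gla the matches begin 227, 211 and 194 bases before the start, the M-box lying between both E-boxes. The flanks of these 3 windows overlap and the matched letters do not, and a match is a description only.
Gla (E-box), chrX:134601217-134601242, minus strand: agcgattgatCACGTGagcatctacg
Gla (M-box), chrX:134601200-134601226, minus strand: agcatctacgTCATGTGagatctcggt
Gla (E-box), chrX:134601184-134601209, minus strand: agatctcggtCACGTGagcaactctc
Ctsd (E-box), chr7:142388057-142388077, minus strand: tccccCACGTGacctgtatcc
Ctsd (E-box), chr7:142387910-142387935, minus strand: gcccgcgtctCACGTGacccgttgag
Atp6v1a (E-box), chr16:44139375-44139400, minus strand: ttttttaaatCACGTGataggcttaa
Fth1 (M-box), chr19:9980394-9980420, plus strand: tcattttagcCACATGAcaattgtgtg
Cd68 (AP-1), chr11:69666303-69666329, minus strand: aagttccgtgTGAGTCAgctgcctcat
Cd68 (AP-1), chr11:69666178-69666204, minus strand: ctgaggtgtcTGAGTCAggtttggggt

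Of 21 tested genes of iron storage and of the NRF2 antioxidant response 10 were higher and none was lower, with a median of 0.69. Without Malat1-poor cells 6 of 20 were higher, and without cells holding a UMI of Pf4, Mrc1 or Ms4a7 5 of 19 were. The ferritin subunits were among the most abundant genes of these cells. Fth1, the heavy chain, stood at 20853 and 16984 CPM against 6902 and 7427 CPM (log2 1.39 ± 0.08, adjusted p = 2.1e-13), and Ftl1, the light chain, at 28362 and 25332 CPM against 11581 and 14354 CPM (1.05 ± 0.09). Mgst1, a membrane glutathione transferase (2.54 ± 0.21, or 2.39 with adjusted p = 0.073 without those cells), the metal-binding Mt2 (1.41 ± 0.10) and Hmox1, which breaks down heme (0.95 ± 0.11), were higher as well. Of 29 tested annexins, galectins and actin regulators 9 were higher and 1 was lower, against 5 of 24 higher without those cells, where the median was 0.37 against 0.22 with all cells. Lgals1, galectin-1, stood at 1435 and 891 CPM against 496 and 361 CPM (1.41 ± 0.10) and Vim, vimentin, at 220 and 233 CPM against 58.4 and 116 CPM (1.27 ± 0.15, or 1.92 without replicate 2). Of 19 tested secreted growth and matrix factors 5 were higher, against 2 of 15 without those cells. Gdf15, a stress-induced cytokine, was at 13.6 and 83.9 CPM against 1.15 and 8.37 CPM (3.33 ± 0.27).

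Of 32 tested homeostatic genes, which mark microglia in the undisturbed brain, 18 were lower in Gpnmb-positive cells, none was higher and 14 were not called, with a median of -0.69. Without replicate 1, 15 were lower and 1 was higher. P2ry12, a purinergic receptor of microglial processes, stood at 305 and 176 CPM against 916 and 672 CPM (log2 -1.78 ± 0.10, adjusted p = 1.3e-13). Tmem119, a microglial surface protein, stood at 126 and 94.3 CPM against 553 and 334 CPM (-1.94 ± 0.11). Sparc, a secreted matrix protein, stood at 667 and 985 CPM against 2550 and 2324 CPM (-1.55 ± 0.11). For all 3 genes both Gpnmb-positive values lay below both Gpnmb-zero values. Siglech (-1.61 ± 0.14), Selplg (-1.43 ± 0.11), Olfml3 (-1.37 ± 0.10), the fructose transporter gene Slc2a5 (-2.11 ± 0.28, not called by DESeq2 at adjusted p = 0.23) and Csf1r, the receptor on which microglial survival depends (-0.87 ± 0.09), were lower. Cx3cr1, the fractalkine receptor (-0.75 ± 0.10), and Cd81 (-0.75 ± 0.09) were called with both libraries but stood at the 1.5-fold limit without replicate 1, at -0.58 each. The complement genes C1qa (-0.21 ± 0.08), C1qb (-0.27 ± 0.08) and C1qc (-0.22 ± 0.08), and Fcrls (0.01 ± 0.10) and Ctss (-0.01 ± 0.08) did not change enough to be called. Without cells holding a UMI of Pf4, Mrc1 or Ms4a7, 13 of the 32 genes were still lower, with P2ry12 at -1.75 and Tmem119 at -1.88, and without Malat1-poor cells 17 were.

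Read the other way, Gpnmb-positive cells were found mainly among cells without P2ry12. Slice 3 weeks cells were grouped by their P2ry12 UMIs after thinning to 2000 UMIs, while Gpnmb was counted before thinning. Of those with no P2ry12 UMI, 21.0% (interval 17.0 to 25.5%) in replicate 1 and 13.4% (11.8 to 15.2%) in replicate 2 were Gpnmb-positive. The share was 4.09% and 3.88% of those with 1 to 2 P2ry12 UMIs, and 2.37% and 0.624% of those with 3 or more. Depth was not made equal for Gpnmb, as cells with 3 or more P2ry12 UMIs had medians of 5778 and 4566.5 UMIs before thinning, against 6233 and 5884 with none.

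Proliferation genes made up 25 of the genes called lower, of 33 tested, and none was higher (median -1.47). Birc5, survivin, stood at 8.13 and 11.4 CPM against 116 and 32.5 CPM (log2 -2.38 ± 0.31, with -1.49 and -3.81 without replicate 1 and 2) and Top2a, topoisomerase II alpha, at 10.8 and 21.2 CPM against 68.7 and 62.3 CPM (-1.80 ± 0.23, or -2.65 without replicate 2). Cells with at least 5 UMIs of 12 proliferation genes were 1.94% and 4.15% of paired Gpnmb-positive cells against 22.3% and 7.55% of their partners. Over all Gpnmb-zero cells the shares were 16.1% and 5.93%, and the latter lies inside the interval of the Gpnmb-positive cells of replicate 2 (2.09 to 7.31%). Without replicate 1, 14 of the genes were lower, with thinned cells 6 were, and with such cells left out of both classes, 1 was. Without cells holding a UMI of Pf4, Mrc1 or Ms4a7, 5 of 25 were lower, in a smaller fit and with a median of -1.34.

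Chemokine and receptor genes went both ways. Of 27 tested inflammatory cytokines and NF-kB genes 5 were higher (3 without replicate 2) and 7 were lower, with thinned cells 3 and 3, and without cells holding a UMI of Pf4, Mrc1 or Ms4a7 1 and 1 of 16. Ccl12, a chemokine that attracts monocytes, had the largest fall of any abundant gene that was not of the cell cycle, at 182 and 170 CPM against 986 and 801 CPM (log2 -2.32 ± 0.11, adjusted p = 4.8e-16). Ccl2 was lower at 39.3 and 9.38 CPM against 142 and 24.2 CPM (-1.68 ± 0.22), although its values in the 2 classes overlapped between libraries. Of 22 interferon-stimulated genes 2 were higher and 5 were lower, with a median of -0.16, against 0 and 1 with DESeq2 and 0 and 2 of 21 with thinned cells. Without replicate 1, 2 were higher and 1 was lower (median 0.53), and without replicate 2, 0 were higher and 7 were lower (median -0.96). Of 21 phagocytic receptors 5 were higher, against 2 without replicate 2 and 0 of 15 without cells holding a UMI of Pf4, Mrc1 or Ms4a7 (edgeR). Itgam, the CD11b chain used in the sort, was lower at 100 and 150 CPM against 243 and 291 CPM (-1.04 ± 0.11). Clec4e, a lectin receptor of dead cells, was found with 5 and 34 UMIs and none in the partner cells. Over all cells of each class it stood at 5.89 and 15.7 CPM against 0.360 and 2.32 CPM, and its call was lost without replicate 2. Of 19 immediate early genes 3 were higher and 2 were lower, against 3 and 1 without replicate 1, 2 and 4 without replicate 2 and 0 and 0 with DESeq2. Of 24 genes of the amino acid and ER stress response 4 were higher and 3 were lower, against 2 and 3 without replicate 1, 4 and 4 without replicate 2 and 1 and 1 with DESeq2.

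Some lists held no called gene. None of 81 cytosolic ribosomal protein genes (median -0.01, with 4 at an unadjusted p under 0.05), 81 nuclear respiratory chain genes (0.11, with 11), 13 mitochondrially encoded genes (-0.20, with 7) or 31 glycolysis and hypoxia genes (0.12, with 10) was called by edgeR or DESeq2. Without replicate 2, 2 respiratory chain genes and 2 glycolysis and hypoxia genes were higher and 1 of the latter and 1 ribosomal protein gene were lower. With thinned cells 1 mitochondrially encoded gene was lower, and 1 glycolysis and hypoxia gene was higher without Malat1-poor cells and with partners matched on Malat1 status. Of 5 tested MHC class II genes, H2-DMa was lower (-0.82 ± 0.13), though not called by DESeq2 (adjusted p = 0.13).

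Levels were already shifted in cells with 1 to 2 Gpnmb UMIs and were further from those of Gpnmb-zero cells above the limit. Cells were thinned to 2000 UMIs and summed by their Gpnmb count before thinning, of 0, 1 to 2, 3 to 5, 6 to 10 and over 10. Ms4a7 then stood at 56.4, 128, 197, 348 and 426 CPM in replicate 1 and at 49.8, 159, 162, 405 and 429 CPM in replicate 2. Tmem119 stood at 624, 489, 90.9, 109 and 106 CPM in replicate 1 and at 478, 262, 91.7, 79.4 and 77.9 CPM in replicate 2, so that it was already low at 3 to 5 UMIs. Spp1 stood at 1964, 4369, 16439, 20022 and 19277 CPM in replicate 1 and at 553, 1920, 3746, 7063 and 10182 CPM in replicate 2. Cells just outside the limit, with exactly 2 UMIs, held 12636 and 2938 CPM of Spp1, and those just inside, with exactly 3, held 20962 and 4593 CPM. P2ry12 stood at 409 and 286 CPM with 2 UMIs and at 115 and 148 CPM with 3. Ms4a7 went the other way, at 470 and 314 CPM with 2 UMIs and 154 and 176 CPM with 3. These values rest on as few as 13 cells and carry no test.

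**Figure D4:**
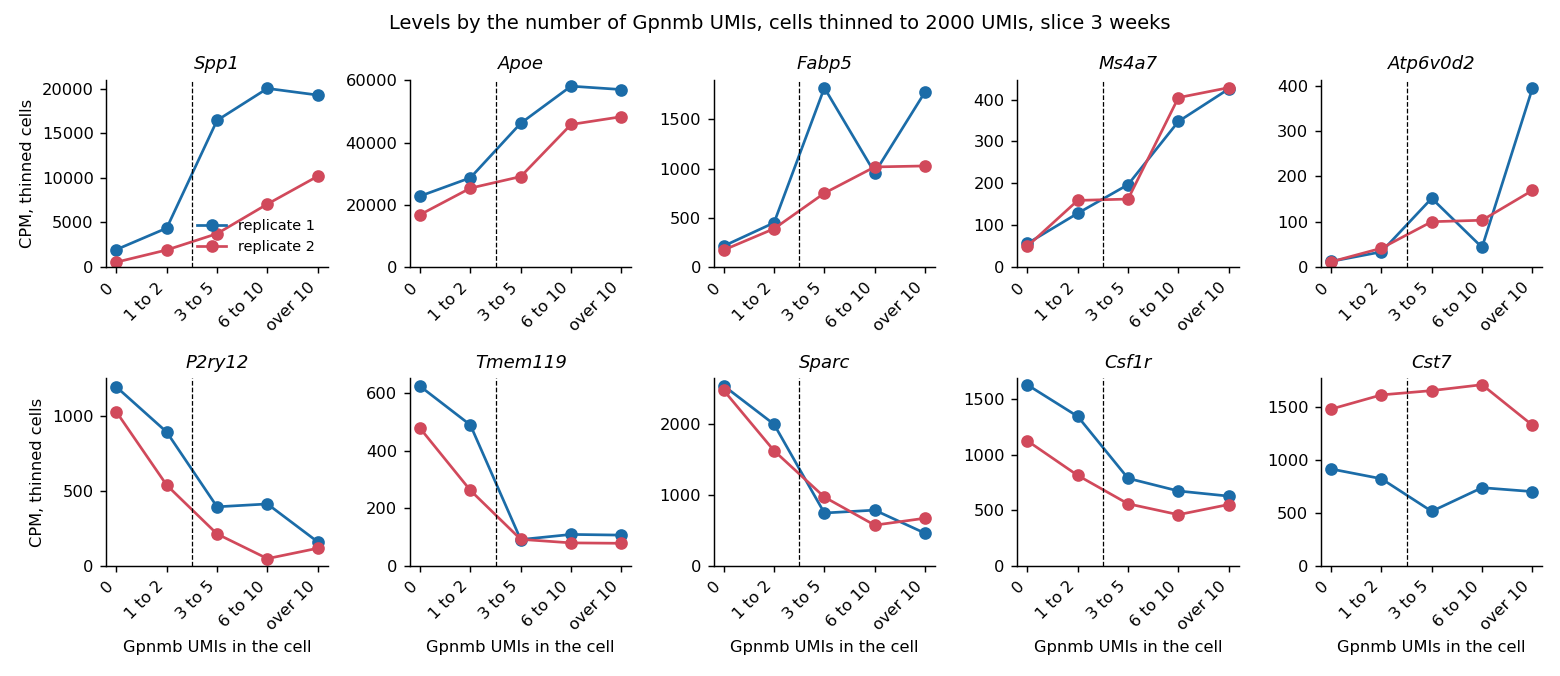
CPM of 10 genes in slice 3 weeks cells thinned to 2000 UMIs and summed by their number of Gpnmb UMIs before thinning (0, 1 to 2, 3 to 5, 6 to 10, over 10), 1 line a library, with the dashed line at the limit. Spp1, Apoe and Ms4a7 are higher and P2ry12, Tmem119, Sparc and Csf1r lower in the 3 groups right of the line than at 0 UMIs in both libraries, whereas Cst7 differs more between libraries than along either line.

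The same contrast was made in the in vitro cultures, where Gpnmb-positive cells were common. Only 369 of 1207 and 298 of 1833 in vitro Gpnmb-positive cells found a partner. These were the shallower ones, with medians of 11530 and 10809 UMIs against 16223 and 15437 in all. Slice pairs had medians of 7013 and 7521 UMIs, so 3 Gpnmb UMIs stand for a lower relative level in vitro. Of the 10246 genes, 145 (1.42%) were higher and 102 (0.996%) were lower in paired in vitro Gpnmb-positive cells than in their Gpnmb-zero partners. Both cultures shared 71 genes called higher, which were 21.3% of those of slice 3 weeks and 49.0% of those in vitro, and 61 called lower, which were 23.6% and 59.8%. Fabp5 was higher in vitro (log2 1.42 ± 0.12), as were Lgals3 (1.49 ± 0.25), Lpl (0.77 ± 0.10), Cd36 (1.02 ± 0.08) and Mmp12 (4.66 ± 0.45), and P2ry12 (-0.78 ± 0.13), Tmem119 (-0.95 ± 0.14), Cx3cr1 (-0.66 ± 0.09) and Ccl12 (-1.40 ± 0.12) were lower. Of the disease-associated genes 6 were higher in vitro and of the homeostatic genes 6 were lower, and 17 proliferation genes were lower.

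The size of the contrast differed between the cultures for 180 genes. A direct test of the difference (interaction term of the same fit) called 127 genes (1.24%) more positive and 53 (0.517%) more negative in slice 3 weeks. Ms4a7 differed by 3.24 ± 0.17 on the log2 scale: in vitro it was abundant in both classes, at 2568 and 2775 CPM against 2568 and 2734 CPM. Pf4 behaved alike, at 2013 and 1919 CPM against 2389 and 1993 CPM in vitro. Spp1 rose in both cultures, by 1.24 ± 0.11 in vitro, and the difference was 1.96 ± 0.15. Apoe stood at 82005 and 80517 CPM against 71501 and 69541 CPM in vitro and was not called there (0.20 ± 0.07). Mmp12 went the other way, with a larger rise in vitro (difference -2.33 ± 0.62, adjusted p = 0.039). That direction rested on slice replicate 2, without which the rise in slices was 6.46. Folr2, a folate receptor, rose in vitro (2.06 ± 0.15) but not in slices (-0.43 ± 0.27). P2ry12 and Tmem119 fell further in slices, with a difference of -0.99 ± 0.19 for Tmem119, and P2ry12 started from a level in Gpnmb-zero cells of 916 and 672 CPM in slices against 80.2 and 77.8 CPM in vitro. At full depth, a UMI of Pf4, Mrc1 or Ms4a7 was held by all 369 and 298 paired Gpnmb-positive in vitro cells and by 99.7% of their Gpnmb-zero partners in each library. In slices, also at full depth, such a UMI was held by 69.9% and 41.1% of paired Gpnmb-positive cells and by 26.2% and 12.8% of their partners.

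**Figure D5:**
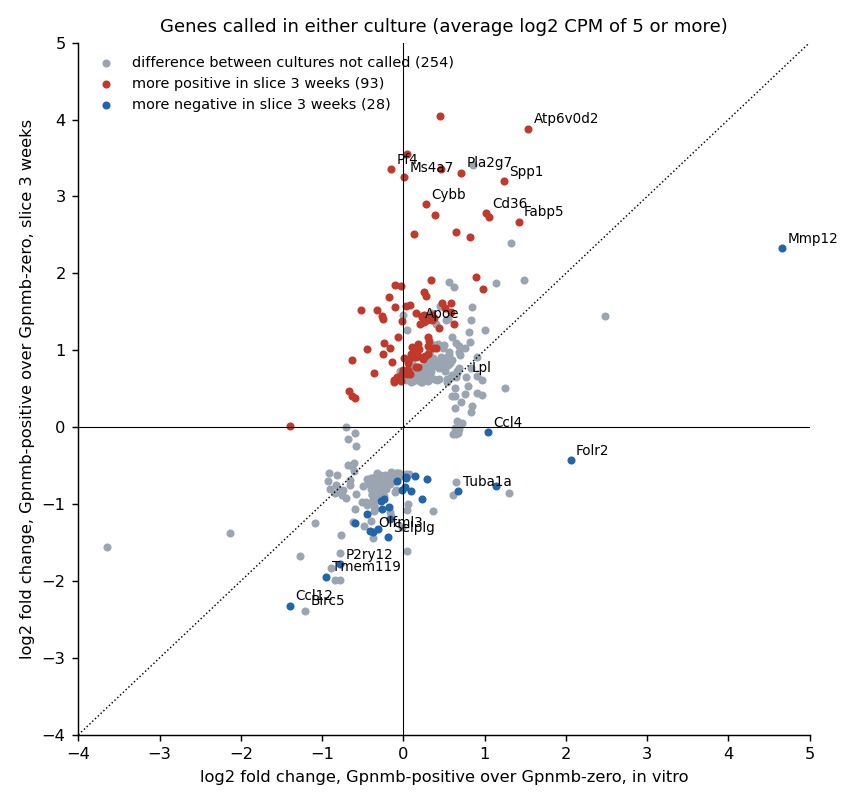
Log2 fold change between Gpnmb-positive and Gpnmb-zero cells in vitro (horizontal) and in slice 3 weeks (vertical) for 375 genes called in either culture whose average log2 CPM was 5 or more, with the dotted line at equal change. Of them, 93 were called more positive and 28 more negative in slice 3 weeks, and Ms4a7, Pf4 and Cybb lie high on the vertical axis near 0 in vitro.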

How the data were processed

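UMI counts per gene and cell from 10 libraries of sorted microglia were used as deposited. Per the labels, the authors prepared them with the 10x Genomics 3' v2 kit, and the submitters' processing notes name Cell Ranger 1.3.0 and the build mm10. The values are counts with no normalization, the files hold 19637 barcodes and 18292 gene symbols, of which 19059 barcodes met the 3 limits that define a cell. The cells kept held 7819156 and 22332658 UMIs in the slice 3 weeks libraries. The cells, the gene lists and the tests were chosen with earlier results of these data known.

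Each Gpnmb-positive cell was paired with a Gpnmb-zero cell of its library (within 0.1 on log2 UMIs, seeded), which left 103 and 265 pairs. Counts were summed per library and class and tested with edgeR 4.0.16 (quasi-likelihood, TMM, R 4.3.3), with library as a block and class within group, over libraries with at least 20 pairs (slice 3 weeks 1 and 2, in vitro 1 and 2, slice 1 day 2), which left 2 residual degrees of freedom. The labels number the libraries within each group but do not pair them across groups. Both classes come from the same library by construction, and over 3767 genes the deviations of the classes from their means correlated at 0.645. The study describes the libraries of a group as independent samples, but the labels name no animals or cultures. The p-values therefore measure how the class difference varied between the libraries of a group, a spread that may be technical. CPM values are TMM-scaled, except summed marker lists and thinned cells, which are not.

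On simulated counts for this contrast over 10246 genes, 19 of 50 genes changed 1.5-fold were called, 45 of 50 changed 2-fold, all 50 changed 3-fold and 4 of 10046 unchanged genes. A call needs an estimate above 1.5-fold, so genes changed by just that fold were bound to be missed in part. The changed genes averaged 5 or more on the log2 CPM scale and changed alike in both slice libraries. The shares therefore do not carry over to genes with few UMIs or with changes that differ between libraries. Scrublet marked 6 slice 3 weeks cells (0.123%), too few to have worked, and none was Gpnmb-positive, so doublets were not removed. The genes named are those of 3 lists (partners and regulators of Gpnmb, disease-associated and homeostatic microglia genes), the 12 largest rises and falls among called genes averaging 5 or more on the log2 CPM scale, up to 4 called genes with the lowest p in every other list, the 6 genes with the lowest p for the difference between cultures in each direction, and cell type markers with Malat1. For a few of these genes the values are left out of the text, while the counts include them. Msr1, Soat1, Abcg1, Abca1 and Hmox1, and the genes of the other observations, fall outside this rule and were chosen after their values were seen. Alternatives included DESeq2 1.42.0, other scalings and filters, thinning to 2000 UMIs and leaving out libraries or cells.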

Additional observations from a re-analysis of the deposited data

Results flagged for a closer look

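The contrast between Gpnmb-positive and Gpnmb-zero cells differed between slice 3 weeks and the in vitro cultures by the interaction test for 127 genes that were more positive and 53 that were more negative in slices. Among those with the lowest p, the difference (slice 3 weeks minus in vitro, log2) was 3.51 for Pf4, 3.24 for Ms4a7, 2.62 for Cybb, 2.60 for Pla2g7, 1.96 for Spp1 and 1.14 for Apoe. It was -2.49 for Folr2, -1.50 for Tuba1a, -1.25 for Selplg, -1.10 for Ccl4 and -0.99 for Olfml3. Tuba1a, an alpha-tubulin gene, was lower in slices (105.7 and 60.7 CPM against 181 and 111 CPM) and higher in vitro (63.3 and 80.0 CPM against 32.8 and 59.9 CPM). Ccl4 was not called in slices (log2 -0.07) and rose in vitro (1.04), and its difference fell to -0.42 with thinned cells and was then not called. Olfml3 and Selplg were low in all in vitro cells, at no more than 94.8 and 109 CPM in any class, against 692 and 581 CPM and 274 and 387 CPM in slice Gpnmb-positive cells.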

How the results depend on the processing

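The 333 genes higher and 259 lower became 508 and 487 with cells neither matched nor thinned (deeper sums), 128 and 70 with DESeq2, 221 and 168 without Malat1-poor cells, and 64 and 42 without cells holding a UMI of Pf4, Mrc1 or Ms4a7 (fewer cells and libraries; this and the matching on Malat1 status were chosen after seeing the data). Library size scaling gave 214 higher and 340 lower, and leaving out cycling cells gave 267 and 167. Without the replicate block, which here drops the pairing of both classes of a library, 70 and 31 were called, and 101 of the 592 calls were kept in the same direction. Leaving out slice 3 weeks replicate 1 or 2 gave 318 to 343 higher and 186 to 282 lower, but only 416 and 365 of the 592 calls were kept in the same direction. Thinned cells gave 277 and 234 with 335 kept, and matching on Malat1 status 300 and 220 with 462 kept. The difference between cultures, 127 and 53, became 372 and 288 unmatched, 34 and 6 with DESeq2, 2 and 0 without the replicate block (edgeR, with 463 genes at an unadjusted p under 0.05, 210 of them negative), 77 and 29 without Malat1-poor cells, 142 and 85 with thinned cells, and 142 and 80 with at least 5 Gpnmb UMIs. Leaving out a slice 3 weeks replicate gave 160 to 200 and 62 to 128. Thinned shares were 11.7% and 17.7% in vitro, 0.208% and 0.394% after 1 day, 0.725% and 0% after 1 week, and 5.52% and 2.70% at 3 weeks. The fits without Pf4, Mrc1 or Ms4a7 cells and on slice libraries alone hold no in vitro arm and give no difference. The cause of the other shifts was not tested. Among named genes, Saa3 reversed to -1.90 without cells holding Pf4, Mrc1 or Ms4a7 UMIs (not called there), and Ube2c to 0.83 without cycling cells (not called). Depth limits genes with few UMIs in a class, such as Anxa1, Cd28 and Fabp4.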

Other observations

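Several low-abundance genes outside the lists, chosen after their values were seen, were called higher in slice Gpnmb-positive cells and were also present at a lower level in Gpnmb-zero cells. The values here are over all cells of each class. Cxcr4, a chemokine receptor, was at 7.07 and 9.22 CPM against 1.08 and 0.510 CPM. Anpep, aminopeptidase N, was at 16.5 and 5.53 CPM against 0.360 and 0.283 CPM. Dkk2, a secreted antagonist of Wnt signalling, was at 10.6 and 16.6 CPM against 2.34 and 1.47 CPM. Itga4 and Itgal, integrin alpha chains that leukocytes use for adhesion, were at 5.89 and 8.76 CPM against 1.80 and 2.21 CPM, and at 7.07 and 7.84 CPM against 1.26 and 2.38 CPM. Each rests on between 5 and 36 UMIs in the Gpnmb-positive cells of a library.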
